A study of Mus musculus with 2 samples.

Results

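Oligodendrocyte progenitor cell (OPC) nuclei were followed in a single-nucleus RNA-seq comparison of irradiated and mock-irradiated mouse brain. A nucleus was counted as an OPC nucleus when it held a transcript of at least 3 of Pdgfra, Vcan, Cspg4, Megf11, Emid1 and Shc4, of at most 2 of the oligodendrocyte genes Mog, Mag, Mobp, St18, Prr5l and Aspa, and of at most 1 of Csf1r, Flt1, Aqp4, Slc17a7 and Gad2, which mark microglia, endothelium, astrocytes, and excitatory and inhibitory neurons. Among 26705 nuclei that showed 500 or more genes and no more than 5% mitochondrial transcripts, 1084 met this rule, of which ShamRT-28d gave 359 and WBRT-28d 725. ShamRT-28d was mock-irradiated and is labelled as not treated, and WBRT-28d received 10 Gy to the whole brain in 5 fractions of 2 Gy. Brains were taken at day 28 in both groups. The mice are labelled C57BL/6 and were bought as female C57BL/6J at an age of 4 to 6 weeks. Frozen whole brains of 2 mice were pooled into a single library per group, so region and animal cannot be read from a nucleus.

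OPCs are the dividing glia of the adult brain. They carry the receptor for platelet-derived growth factor and a coat of chondroitin sulfate proteoglycans, receive synaptic input from neurons, and either divide or leave the cycle and become myelinating oligodendrocytes. On that route they pass a short-lived committed stage, at which the receptor Gpr17 comes on before the genes of compact myelin.

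The files held 11469 barcodes with 45511469 unique transcript counts (UMIs) for ShamRT-28d and 15986 with 68423922 for WBRT-28d. OPC nuclei held 1467886 and 3067095 UMIs, with medians of 3413 and 3524 UMIs and of 1712 and 1800 detected genes per nucleus. No barcode of an OPC nucleus occurred in both libraries, although 43 of all barcodes did. With 1 library per group there was no replicate, so no difference between the libraries could be tested, and an effect of irradiation cannot be told apart from a difference between 2 libraries or 2 pools of mice. Levels are summed UMIs scaled to a total of 1000000 UMIs over the OPC nuclei of a library (CPM), given for ShamRT-28d first. Every ratio is WBRT-28d over ShamRT-28d with an exact 95% interval, and every share has an exact Clopper-Pearson 95% interval. A ratio in brackets is followed by its interval. The intervals cover counting error only.

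Genes that the rule did not use carried the same identity. Of 10 such OPC genes, the median nucleus of either library held 7, and at least 6 were found in 302 nuclei (84.1%) of the first library and 633 (87.3%) of the second. None of the 10 was found in 1 and 2 nuclei, respectively. Lhfpl3, which encodes a tetraspan membrane protein, stood at 6327 CPM in ShamRT-28d and 6031 CPM in WBRT-28d, which was 27.0 and 14.6 times its level in the remaining nuclei of the same library. The AMPA receptor auxiliary subunit Cacng4 stood at 747 and 698 CPM, 24.0 and 16.2 times the remaining nuclei. Sox10 and Olig2, transcription factors of the whole oligodendrocyte lineage, stood at 319 and 239 CPM and at 61.3 and 62.3 CPM. For every one of the 6 rule markers and the 10 further genes, the fold over the remaining nuclei was smaller in WBRT-28d than in ShamRT-28d, and for Pdgfra it was 54.4 and 24.3. In the remaining nuclei 15 of these 16 genes stood higher in WBRT-28d, Sox10 excepted, as for Pdgfra at 17.4 and 27.7 CPM and Cspg4 at 7.88 and 21.8 CPM.

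**Figure D1:**
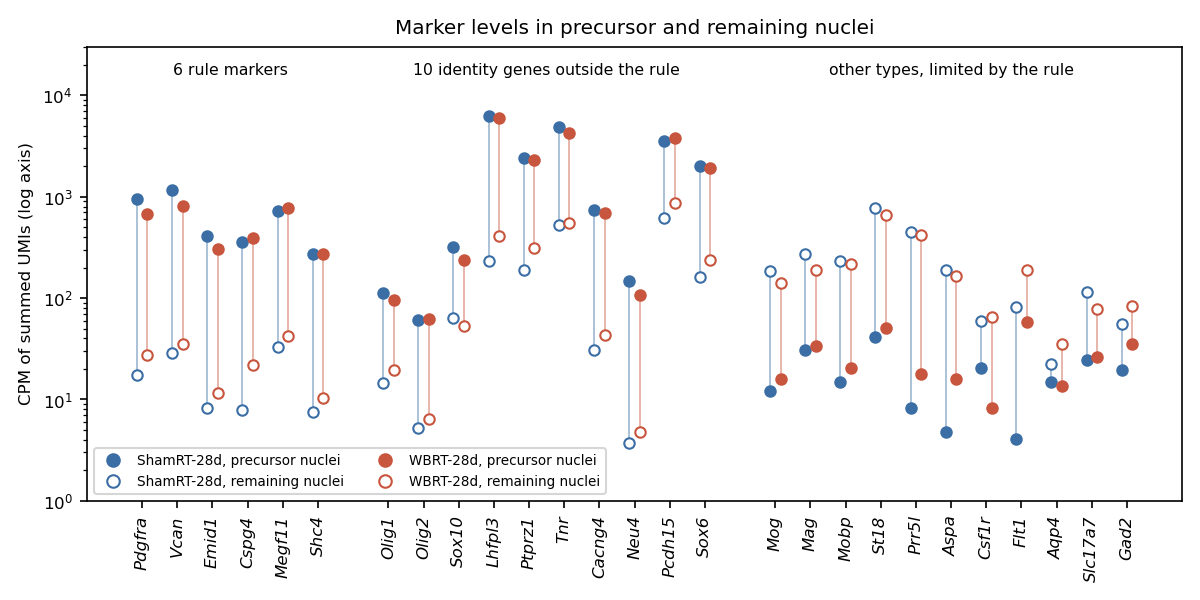
CPM of summed UMIs (log axis) in OPC nuclei (filled points) and in all remaining kept nuclei (open points) of ShamRT-28d (blue) and WBRT-28d (red), for the 6 rule markers, 10 identity genes outside the rule and 11 genes that the rule limited. Every rule marker and identity gene lies higher in OPC nuclei than in the remaining nuclei of its library, with Pdgfra at 945 and 674 CPM in OPC nuclei against 17.4 and 27.7 CPM.

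The 20 genes with the largest fold over the remaining nuclei in both libraries included all 6 rule markers, Gpr17 and several other genes with no part in the rule. Neu4, a sialidase, had folds of 39.6 and 22.7. C1ql1, a secreted synaptic organizer, had 44.2 and 17.3, and the axon guidance ligand Sema3d had 19.98 and 14.9. S100a3, a calcium-binding protein, had 49.9 and 27.8, and Rlbp1, a retinoid-binding protein, had 27.0 and 17.1. The potassium channel gene Kcnh8 had 16.6 and 16.1. Since the nuclei were chosen by marker transcripts, these folds are descriptions.

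The nuclei just inside and just outside the rule differed in these other genes as well. In ShamRT-28d, 83 nuclei held 3 markers, 86 held 4, 97 held 5 and 93 held all 6, and in WBRT-28d the numbers were 167, 182, 201 and 175. Nuclei with 3 markers held a median of 6 identity genes in either library, with Lhfpl3 at 3275 and 4903 CPM. The nuclei that met the other limits but held only 2 markers, 154 and 272 of them, held a median of 3 identity genes and had Lhfpl3 at 623 and 1219 CPM and Sox10 at 34.8 and 41.5 CPM. In these nuclei the summed level of 8 neuron genes was 7201 and 5348 CPM.

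OPC nuclei made up 3.25% (2.93–3.60) of the kept nuclei in ShamRT-28d and 4.63% (4.30–4.97) in WBRT-28d. Set against mature oligodendrocyte nuclei, defined by at least 3 of the 6 oligodendrocyte genes, there were 15.03 and 24.8 OPC nuclei per 100. The gap between the libraries was smaller at some settings. When nuclei held none of the oligodendrocyte and other-type genes, the shares were 1.78% and 1.85%, and when every nucleus was thinned to 1000 UMIs before the rule was applied they were 1.94% and 2.23%. Thinning also leaves fewer marker transcripts for the rule, so depth alone cannot be read from it. The shares were 2.50% and 3.56% with at least 4 markers, and 2.74% and 4.04% with at least 6 identity genes. Without nuclei that held several genes of another cell type they were 2.83% and 3.53%. A share of captured nuclei does not count cells of the brain, and whether capture differed between the libraries was not tested.

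Transcripts of other cell types were not equally frequent in OPC nuclei of the 2 libraries. Endothelial genes summed to 29.3 and 199 CPM over 8 listed genes, with Flt1 at 6 and 179 UMIs and Slco1a4 at 3 and 127 UMIs, and all 7 measured members were at least 1.5 times higher in WBRT-28d. Flt1 is one of the genes that the rule limited. Among all genes with at least 20 UMIs in OPC nuclei of both libraries together, 8.46% were at least 1.5 times higher and 9.84% lower. Mural and fibroblast genes summed to 33.4 and 82.8 CPM, with 4 of 6 measured members at least 1.5 times higher. Microglia genes went the other way, at 269 and 132 CPM, with 7 of 8 at least 1.5 times lower in WBRT-28d, P2ry12 at 58.6 and 24.1 CPM, and Tmem119 the exception at 5 and 18 UMIs. Astrocyte genes summed to 586 and 802 CPM, with 7 of 9 higher, 5 of them at least 1.5 times, and 2 lower. Gfap had the largest ratio of them at 1 and 21 UMIs, while Aqp4 was at 22 and 42 UMIs (0.914, 0.533–1.61). In the neuron list the sum was 2072 and 2397 CPM, which was 34.1% and 43.9% of the mean over all kept nuclei of the library. Of its 8 genes 5 were higher and 3 lower. The calcium/calmodulin kinase gene Camk2a, the only 1 past 1.5 times, stood at 97.4 and 196 CPM.

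Some nuclei held several genes of another cell type. At least 3 of 16 endothelial or mural genes were detected in 3 (0.836%) and 35 (4.83%) OPC nuclei, and at least 3 of 8 microglia genes in 17 (4.74%) and 16 (2.21%). At least 4 of 9 astrocyte genes were detected in 3 (0.836%) and 24 (3.31%), and at least 5 of 8 neuron genes in 28 (7.80%) and 116 (16%). The median number of OPC identity genes in each of these sets was 7 or 8. Leaving out all such nuclei kept 312 and 553, in which endothelial genes summed to 22.5 and 81.8 CPM and microglia genes to 146 and 113 CPM. In the same nuclei mural and fibroblast genes summed to 29.7 and 46.3 CPM, astrocyte genes to 568 and 640.0 CPM and neuron genes to 1234 and 1511 CPM, so part of each list's UMIs lay outside the mixed nuclei. Ratios without these mixed nuclei are given beside the main results, and their part in the other values was not tested.

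Across the OPC transcriptome, similar shares of genes were higher and lower. Levels are scaled to the same total in both libraries, so this balance cannot show how alike the libraries were. Of 6572 genes that reached 100 UMIs in the 2 libraries together, 254 (3.86%) were at least 1.5 times higher in WBRT-28d and 245 (3.73%) at least 1.5 times lower, 51.6% were higher at all and 48.4% lower at all, and the median log2 ratio was 0.01. Of those past 1.5 times, 237 of the higher and 244 of the lower genes had an interval that left out 1. Without the mixed nuclei 193 were higher and 179 lower of 5011. When free RNA, estimated from the neuron genes, was subtracted, 238 were higher and 1344 lower of 6265. The estimate took 34.1% of the CPM total in ShamRT-28d and 43.9% in WBRT-28d, and the rest was not rescaled. That lowers ratios as a whole, so these 2 counts cannot show whether the balance of both directions held. Among the 11849 genes with at least 20 UMIs, the set in which the gene lists were counted, 8.46% were at least 1.5 times higher and 9.84% lower, 49.3% were higher at all and 50.7% lower at all.

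The rule markers, whose detection chose the nuclei, are given as a description. Pdgfra, the receptor tyrosine kinase for platelet-derived growth factor (chr5:75152292-75198215, forward strand, GRCm38), stood at 945 CPM in ShamRT-28d and 674 CPM in WBRT-28d, a ratio of 0.713 (0.666–0.764). Its lower quartile, median and upper quartile over nuclei were 435, 907 and 1579 CPM in ShamRT-28d and 303, 623 and 1134 CPM in WBRT-28d, and the shares of nuclei with a UMI were 85.8% and 85.7% as counted but 61.3% and 51.9% after thinning to 1000 UMIs. Per nucleus, the WBRT-28d distribution lay lower, with wide overlap. In mature oligodendrocyte nuclei a Pdgfra UMI was found in 2.18% and 3.12%. That class was chosen to hold at most 1 of the rule markers, so these shares are no independent background. The median nucleus of that class held 2450 UMIs in ShamRT-28d and 2536 in WBRT-28d. Vcan, which encodes the proteoglycan versican, stood at 1153 and 812 CPM with a ratio of 0.704 (0.662–0.749), and Emid1, a collagen-like secreted protein, at 411 and 306 CPM with 0.744 (0.671–0.825). Cspg4, the NG2 proteoglycan, stood at 356 and 395 CPM with 1.11 (1.0–1.23), Megf11 at 727 and 768 CPM with 1.06 (0.983–1.14), and the adaptor gene Shc4 at 270.5 and 269.6 CPM with 0.997 (0.883–1.13). Without the mixed nuclei the ratios of Pdgfra, Vcan and Cspg4 were 0.709, 0.706 and 1.13.

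Among lineage transcription factors, 19 of 21 were measured with at least 20 UMIs, 7 higher and 12 lower, with a median log2 ratio of −0.07. Of these, 1 was past 1.5 times, and it was lower. Sox8, a partner of Sox10 in oligodendrocyte differentiation, stood at 98.8 CPM in ShamRT-28d and 61.9 CPM in WBRT-28d, a ratio of 0.627 (0.503–0.784), with a UMI in 110 of 359 nuclei (30.6%) and 154 of 725 (21.2%). Sox10 itself had a ratio of 0.750 (0.667–0.844). In mature oligodendrocyte nuclei Sox8 and Sox10 had ratios of 0.687 (0.607–0.776) and 0.617 (0.580–0.657), and whether the classes differed was not tested. The factors that hold OPCs in an immature state were close to level, with Sox5 at 1181 and 1234 CPM (1.04) and Sox6 at 2019.9 and 1926 CPM (0.953, and 1.0 with every nucleus weighted equally). Olig1 and Olig2 had ratios of 0.848 (0.698–1.03) and 1.02 (0.787–1.32), and the helix-loop-helix gene Tcf4, at 1967 and 1657 CPM, had 0.843 (0.805–0.882).

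Receptors for growth factors showed no common direction, with 7 of 14 measured members higher and 7 lower and a median log2 ratio of 0.01. Erbb4, a neuregulin receptor, stood at 3255 and 3151 CPM, a ratio of 0.968 (0.935–1.0). Ntrk2, the receptor for brain-derived neurotrophic factor, stood at 612 and 774 CPM with 1.26 (1.17–1.37), which became 0.990 with free RNA subtracted, and Ntrk3 at 765 and 800.1 CPM with 1.05 (0.974–1.12). Igf1r, the receptor for insulin-like growth factor, stood at 229 and 308 CPM, a ratio of 1.35 (1.19–1.53), and 1.07 with free RNA subtracted. The subtracted values of Ntrk2 and Igf1r were not rescaled, which lowers ratios as a whole. The 2 members past 1.5 times were Lpar1, a lysophosphatidic acid receptor, at 8 and 40 UMIs, and Pdgfrb, a pericyte gene also in the mural list, at 4 and 39 UMIs. The larger ratios thus came from few UMIs. Feedback genes of the ERK pathway, which follow growth factor signalling, were near level, with Spred1, Spred2, Etv4 and Etv5 at ratios of 1.09, 1.07, 0.905 and 1.06, and no measured member of 11 past 1.5 times.

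Genes of the cell cycle were lower in WBRT-28d, and much of the gap lay in 5 nuclei. Of 30 listed genes, 20 had at least 20 UMIs, all 20 had a ratio below 1 and 12 were at least 1.5 times lower, against 9.84% of all genes with as many UMIs. For 10 of the 12 the interval also left out 1. The median log2 ratio was −0.96, and the list summed to 482 and 302 CPM, a ratio of 0.626 (0.567–0.692). Without the list's UMIs in the 5 highest nuclei of each library the sums were 259 and 224 CPM. These were 5 of 359 and 5 of 725 nuclei, so a larger share was left out in ShamRT-28d. Top2a, a topoisomerase of dividing cells (chr11:98992943-99024189, reverse strand), had 72 UMIs in ShamRT-28d and 45 in WBRT-28d, that is 49.1 and 14.7 CPM, a ratio of 0.299 (0.201–0.440). Mki67, the Ki-67 antigen, had 23 and 18 UMIs and a ratio of 0.375 (0.190–0.725), and Knl1, a kinetochore scaffold, had 29 and 22 UMIs and 0.363 (0.199–0.654). Ect2, needed for cytokinesis, had 23 and 15 UMIs and 0.312 (0.151–0.625), the spindle motor Kif11 12 and 9 UMIs and 0.359 (0.134–0.928), and the helicase Brip1 18 and 8 UMIs and 0.213 (0.0800–0.514). The members with the most UMIs were nearer to level, with the DNA polymerase subunit Pola1 at 104 and 91.6 CPM (0.879, 0.719–1.08) and the formin Diaph3 at 87.9 and 67.5 CPM (0.768, 0.613–0.964).

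Promoters of these genes are shown because all 20 measured members lay on the same side of 1 and because 2 short elements, the CCAAT box and the cell cycle homology region (CHR), are known from promoters of genes expressed at mitosis. Each sequence is the 150 bases before the annotated start, read 5′ to 3′ on the gene's strand from RefSeq (GRCm38.p6). Capitals mark CCAAT or its reverse ATTGG, and the CHR forms TTTGAA or its reverse TTCAAA, and TTCGAA, which reads the same on both strands.
Top2a promoter (chr11:99024190-99024339, reverse strand): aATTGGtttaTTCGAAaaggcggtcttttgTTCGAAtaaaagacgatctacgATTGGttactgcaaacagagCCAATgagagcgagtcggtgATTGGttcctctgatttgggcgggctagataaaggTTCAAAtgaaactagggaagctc
Mki67 promoter (chr7:135716380-135716529, reverse strand): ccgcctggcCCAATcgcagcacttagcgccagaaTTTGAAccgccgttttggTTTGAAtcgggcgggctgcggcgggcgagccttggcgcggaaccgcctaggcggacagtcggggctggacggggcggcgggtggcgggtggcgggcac
Ect2 promoter (chr3:27153855-27154004, reverse strand): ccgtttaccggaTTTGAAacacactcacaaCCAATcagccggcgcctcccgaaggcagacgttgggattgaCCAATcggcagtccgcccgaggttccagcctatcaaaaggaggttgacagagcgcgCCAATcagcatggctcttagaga
Kif11 promoter (chr19:37376232-37376381, forward strand): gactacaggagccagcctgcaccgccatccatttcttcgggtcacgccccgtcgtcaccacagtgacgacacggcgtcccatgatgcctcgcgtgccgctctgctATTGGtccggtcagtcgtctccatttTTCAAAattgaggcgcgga
Brip1 promoter (chr11:86201194-86201343, reverse strand): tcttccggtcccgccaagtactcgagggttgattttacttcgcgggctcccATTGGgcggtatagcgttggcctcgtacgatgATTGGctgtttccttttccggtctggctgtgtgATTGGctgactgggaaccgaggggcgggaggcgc
Knl1 promoter (chr2:119046969-119047118, forward strand): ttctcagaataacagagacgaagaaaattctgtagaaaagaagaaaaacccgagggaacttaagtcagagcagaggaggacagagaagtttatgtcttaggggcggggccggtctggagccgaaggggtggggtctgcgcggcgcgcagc
Hells promoter (chr19:38930840-38930989, forward strand): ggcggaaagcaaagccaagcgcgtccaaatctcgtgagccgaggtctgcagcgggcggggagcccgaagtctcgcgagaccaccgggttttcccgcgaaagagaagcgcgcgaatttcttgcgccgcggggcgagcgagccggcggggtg
The Top2a window held 4 CCAAT boxes and 3 CHR forms, that of Mki67 1 and 2, that of Ect2 3 and 1, and that of Kif11 1 of each. Brip1 held 3 CCAAT boxes and no CHR form, and Knl1, with a ratio of 0.363, and Hells, a chromatin remodeller with a ratio of 0.874 (0.514–1.52), held neither in these letters. Searched over 250 bases, 33.8% of all 32851 promoters held CCAAT, 17.1% a CHR form and 6.02% both. Of 30 promoters of 28 listed cell cycle genes, 23 (76.7%) held CCAAT, 9 (30%) a CHR form and 8 (26.7%) both. Of the 19 measured genes with a promoter here, 5 held both, Top2a, Mki67, Ect2 and Kif11 among them. The windows shown therefore do not stand for the whole list. A second annotated start of Ect2 gave a window with 2 CCAAT boxes and 1 CHR form. These matches describe letters and say nothing of binding.

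The cell cycle transcripts were concentrated in few nuclei. In ShamRT-28d 5 nuclei held 44 to 97 UMIs of the list each and the next held 12, and these 5 carried 46.3% of the list's UMIs and 94.4% of those of Top2a. In WBRT-28d 8 nuclei held 13 to 70 UMIs and the next held 9, and the highest 5 carried 25.7%. Nuclei with at least 0.5% of their UMIs in the list numbered 5 of 359 (1.39%, 0.454–3.22) and 6 of 725 (0.828%, 0.304–1.79), and the 2 intervals overlapped. The 5 and 8 highest nuclei held 6 to 9 of the 10 OPC identity genes, and the highest of WBRT-28d also held 4 microglia genes, which makes it a mixed nucleus. Counted as at least 2 of 8 core genes detected, 9 nuclei (2.51%, 1.15–4.71) and 21 nuclei (2.90%, 1.80–4.39) qualified, and after thinning to 1000 UMIs 1.71% of 351 and 1.10% of 725. The same count in mature oligodendrocyte nuclei, which have left the cycle, was 0.670% and 0.240%, with the lower depths given for that class. A difference in the share of cycling nuclei was not detectable at this depth. Without the nuclei holding 2 core genes, 6 list members kept 20 UMIs, all 6 below a ratio of 1, Top2a kept 3 UMIs in each library, and the list summed to 258 and 200.4 CPM, a ratio of 0.777 (0.681–0.888). Without mixed nuclei the summed ratio was 0.587 (0.522–0.661).

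**Figure D2:**
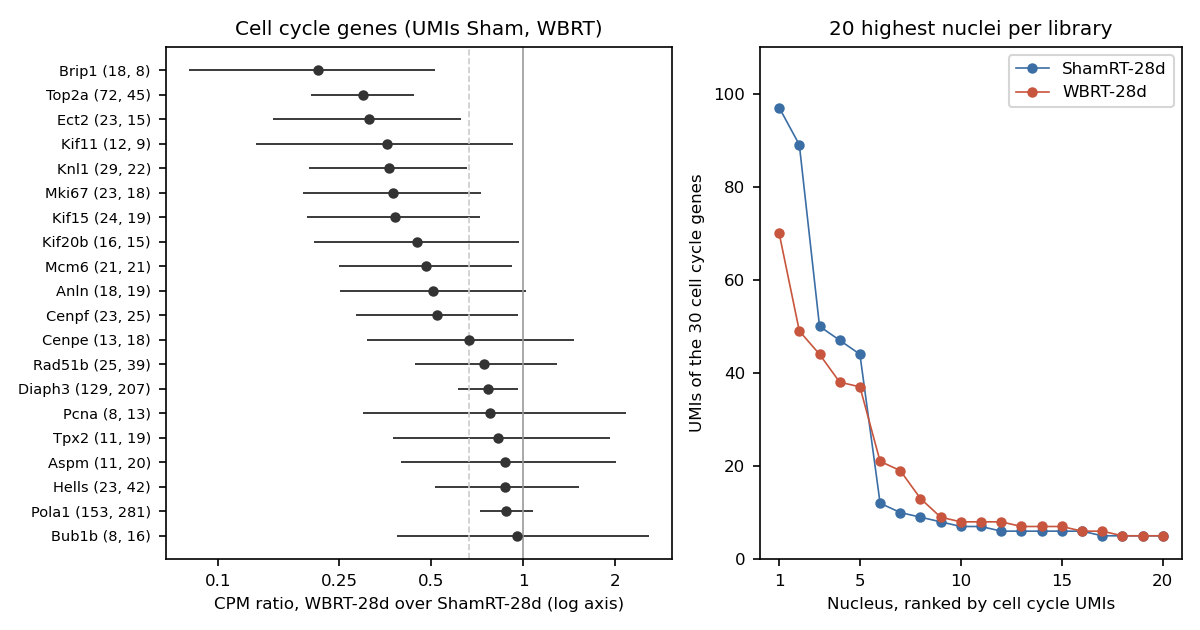
Left, CPM ratio of WBRT-28d over ShamRT-28d (log axis) with 95% counting intervals for the 20 cell cycle genes with at least 20 UMIs in OPC nuclei, UMIs of both libraries in brackets, a solid line at 1 and a dashed line at 1.5 times lower. Right, UMIs of the 30 cell cycle genes in the 20 highest OPC nuclei of each library. All 20 ratios lie below 1, and the curves drop from 44 to 12 UMIs after 5 nuclei in ShamRT-28d and reach 9 UMIs after 8 nuclei in WBRT-28d.

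Genes of the committed stage were uneven. Gpr17, the receptor that marks committed precursors, stood at 211 CPM in ShamRT-28d and 135 CPM in WBRT-28d, a ratio of 0.641 (0.552–0.745), and at 0.622 (0.527–0.734) without mixed nuclei. Bmp4, a secreted ligand of the same stage, was at 32 and 27 UMIs, a ratio of 0.404 (0.233–0.696), and Neu4 was at 146 and 108 CPM with 0.735 (0.617–0.876). The calcium channel Itpr2 was slightly lower at 543 and 491 CPM (0.904, 0.829–0.987). Bcas1 at 477 and 503 CPM (1.05, 0.964–1.15) and the kinase Fyn at 371 and 371 CPM (1.0, 0.902–1.11) were close to level. Enpp6, an early marker of newly formed oligodendrocytes, was at 10 and 37 UMIs (1.77, 0.863–3.99), held by 6 and 11 nuclei, and the kinesin Kif19a at 18 and 9 UMIs. In all, 11 of 14 listed genes were measured, 1 at least 1.5 times higher and 3 lower, with a median log2 ratio of −0.17, and the interval lay below 1 for 6 genes and above 1 for 0. Of all genes with as many UMIs, 8.46% were at least 1.5 times higher and 9.84% at least 1.5 times lower, whatever their interval. For the interval counts no share over all genes is given.

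The Gpr17 difference lay in the nuclei with several UMIs. At least 1 Gpr17 UMI was found in 40.7% (35.5–45.9) and 36.7% (33.2–40.3) of OPC nuclei, intervals that overlap. At least 3 UMIs were found in 40 nuclei (11.1%, 8.08–14.9) and 29 nuclei (4.0%, 2.69–5.69), and at least 5 in 10 and 4. With all nuclei thinned to 1000 UMIs, a Gpr17 UMI remained in 14.2% and 10.8%. Mature oligodendrocyte nuclei held a Gpr17 UMI in 1.51% and 2.26% and astrocyte nuclei, with median depths of 2877 and 3012.5 UMIs, in 0.905% and 2.89%. Measured over 6 genes of the stage at once, 149 nuclei (41.5%, 36.4–46.8) and 275 nuclei (37.9%, 34.4–41.6) held at least 3, and after thinning 6.84% of 351 and 4.83% of 725. This count was reached by 0 of 442 and 4 of 970 astrocyte nuclei, the latter 0.412%.

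Nuclei with at least 3 Gpr17 UMIs differed from nuclei without one in several genes, some alike and some unlike between the libraries. Compared with nuclei without a Gpr17 UMI, they held more Bcas1, with CPM ratios of 3.08 (2.57–3.68) in ShamRT-28d and 3.20 (2.73–3.74) in WBRT-28d, and more Fyn, with 2.65 (2.16–3.25) and 3.42 (2.86–4.06). Cd9, a tetraspanin, had 2.38 (1.85–3.04) and 2.15 (1.51–3.0), and the transcription factor Tcf7l2 1.55 (1.10–2.17) and 1.90 (1.37–2.58). Enpp6 had 9 UMIs in the 40 nuclei against 0 in 213 in ShamRT-28d and 15 UMIs in the 29 against 4 in 459 in WBRT-28d. Bmp4 had ratios of 19.2 (6.52–76.6) and 8.45 (2.67–25.5). Vegfa, a secreted angiogenic factor, went the other way with 0.591 (0.358–0.933) and 0.329 (0.0884–0.863). Other genes did not lie on the same side in both libraries. Ptprz1 had 1.27 (1.15–1.40) and 0.856 (0.761–0.959), Ninj2, an adhesion molecule, 0.880 (0.577–1.30) and 2.37 (1.55–3.52), Shc4 1.06 (0.782–1.41) and 0.446 (0.274–0.690), and the endothelin receptor Ednrb 1.42 (1.03–1.92) and 0.756 (0.448–1.2). Whether these ratios differed between the libraries was not tested. Pdgfra and Cspg4 were not separated from 1 in either library, at 0.885 (0.748–1.04) and 0.962 (0.777–1.18) for Pdgfra. Pdgfra, Cspg4 and Shc4 are rule markers, whose detection chose the nuclei. Nuclei that lacked them were more often left out, so their ratios here are descriptions. The nuclei with 3 Gpr17 UMIs were also deeper, with median UMIs of 5394.5 against 2843 and 5030 against 3100, and whether depth entered these ratios was not tested.

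**Figure D3:**
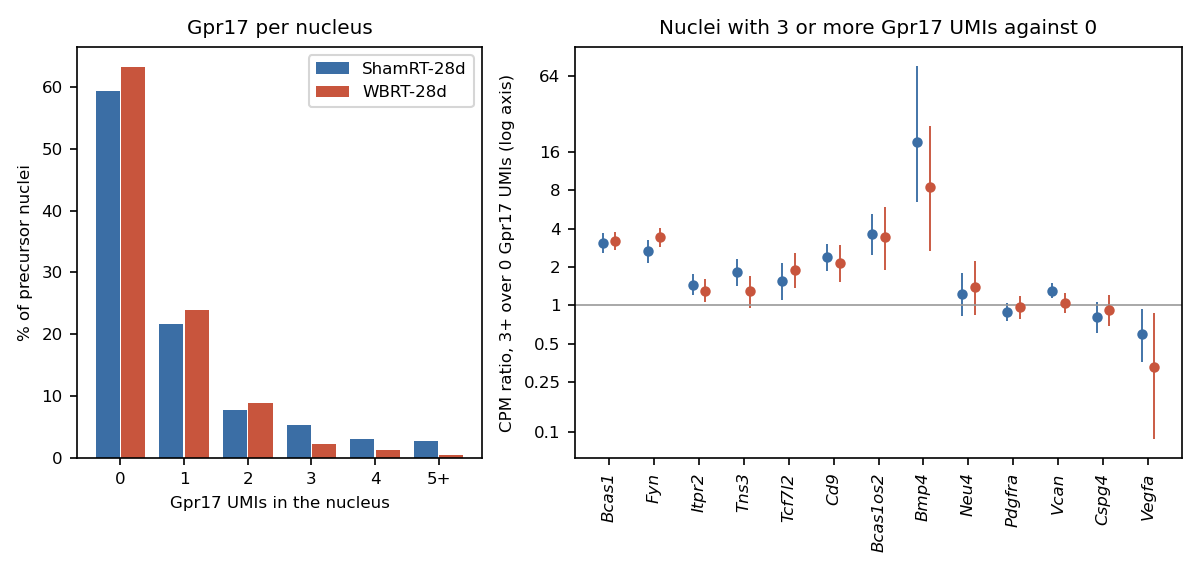
Left, percent of OPC nuclei of ShamRT-28d (blue) and WBRT-28d (red) by number of Gpr17 UMIs. Right, CPM ratio (log axis) of nuclei with 3 or more Gpr17 UMIs over nuclei with 0 in each library, with 95% counting intervals. The bars for 3, 4 and 5 or more UMIs are higher in ShamRT-28d, while Bcas1, Fyn, Cd9, Bcas1os2 and Bmp4 lie above 1 and Vegfa below 1 in both libraries.

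Myelin genes, measured for 15 of 16, had a median log2 ratio of −0.11. The connexin gene Gjc3 stood at 418 and 384 CPM (0.919, 0.833–1.01). Ninj2 was lower at 164 and 96.5 CPM, a ratio of 0.588 (0.494–0.700). Mbp, myelin basic protein, was higher at 66.1 and 108 CPM (1.64, 1.30–2.08), but in the remaining nuclei it stood at 744 and 727 CPM, and the free RNA estimated for it came to 372% and 284% of the level measured in OPC nuclei.

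Genes of the pericellular matrix and of adhesion, among the most abundant OPC transcripts, were close to level. Of 21 measured proteoglycan and matrix genes, 1 was at least 1.5 times higher and 1 lower, and the list summed to 18606 and 17848 CPM. Tnr, tenascin-R, stood at 4929.5 and 4222 CPM (0.856, 0.832–0.882), the heparan sulfate proteoglycan Gpc5 at 4511 and 4345 CPM (0.963, 0.935–0.992) and Ptprz1, a receptor phosphatase and chondroitin sulfate carrier, at 2419.8 and 2318 CPM (0.958, 0.920–0.998). Xylt1, the enzyme that starts glycosaminoglycan chains, was at 2053 and 2490.3 CPM, a ratio of 1.21 (1.16–1.27). Hapln1, a link protein, was the lower member at 37 and 43 UMIs (0.556, 0.350–0.888). None of 18 adhesion and synapse contact genes passed 1.5 times in either direction, and their ratios ran from 0.849 to 1.19. Among them Lrrc4c stood at 7534 and 7302 CPM and Nlgn1 at 5691 and 5508 CPM, genes for synaptic adhesion proteins that neurons also express.

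Receptors for glutamate and GABA, through which OPCs receive neuronal input, were measured for all 24 listed genes, 15 higher and 9 lower, with a median log2 ratio of 0.11 and none past 1.5 times. Gria2, the AMPA receptor subunit that limits calcium entry, stood at 1515 and 1227 CPM, a ratio of 0.810 (0.768–0.854). The kainate subunit Grik2 was at 1353 and 1296 CPM (0.958, 0.908–1.01) and the metabotropic receptor Grm5 at 1361 and 1363 CPM (1.0, 0.949–1.06). Ion channel genes summed to 10663 and 12447 CPM, a ratio of 1.17 (1.15–1.19), with 12 of 20 higher. Kcnip3, a calcium-binding partner of A-type potassium channels (chr2:127456498-127522094, reverse strand), stood at 509 and 724 CPM, a ratio of 1.42 (1.31–1.55), against 132 and 162 CPM in the remaining nuclei. It was detected in 259 of 359 nuclei (72.1%) and 582 of 725 (80.3%). The Kcnip3 ratio was 1.90 (1.67–2.17) in mature oligodendrocyte nuclei and 1.03 (0.886–1.21) in astrocyte nuclei. Whether the classes differed was not tested. The channel Kcnd2 itself was at 4239 and 4627 CPM (1.09, 1.06–1.12). The only member of the list past 1.5 times was Kcnip4 at 1358 and 2166 CPM (1.60, 1.52–1.68), but it stood at 7156 and 6496 CPM in the remaining nuclei, and 5 nuclei carried 44.6% and 27.1% of its UMIs. Without mixed nuclei its ratio was 1.39 (1.27–1.52) and that of Kcnip3 1.57 (1.43–1.73).

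Signalling genes of axon guidance, Wnt, Notch and BMP had members on both sides of 1. Of 21 axon guidance genes, 13 were higher and 8 lower, with the netrin receptor Dcc at 2187 and 2291 CPM (1.05, and 0.998 without mixed nuclei), Sema5a at 304 and 387 CPM (1.27, 1.14–1.42) and the Slit receptor Robo1 at 325 and 403 CPM (1.24, 1.11–1.38). Of the 21, 3 were at least 1.5 times higher and 0 lower, and the interval of 1 of the 3 left out 1. Among all genes with at least 20 UMIs, 8.46% were at least 1.5 times higher and 9.84% lower. Without mixed nuclei 20 axon guidance genes were measured, with 0 past 1.5 times in either direction. In the Wnt list 6 of 8 measured genes were higher, 3 of them at least 1.5 times, and 1 was at least 1.5 times lower, while without mixed nuclei 4 were higher and 4 lower and the list summed to 539.8 and 491 CPM, a ratio of 0.910 (0.821–1.01). Rnf43, a ubiquitin ligase that removes Wnt receptors (chr11:87662722-87735539, forward strand), was lower at 212 and 134 CPM, a ratio of 0.632 (0.545–0.735), and 0.663 without mixed nuclei. Its paralog Znrf3 was at 135 and 163 CPM (1.21, 1.02–1.43), with a ratio of 0.973 without mixed nuclei, and the Wnt feedback gene Nkd1 at 44 and 143 UMIs (1.56, 1.10–2.23). Lef1, also a gene of brain endothelium, was at 5 and 87 UMIs, with a UMI in 4 of 359 nuclei (1.11%) and 33 of 725 (4.55%). Among Notch genes the ligand Jag1 was lower at 38 and 44 UMIs (0.554, 0.351–0.879), and Notch3, a mural cell gene, was at 2 and 39 UMIs. Of the BMP and TGF-beta list, Bmpr1b was higher at 21 and 86 UMIs (1.96, 1.21–3.33), with 90.5% and 37.2% of its UMIs in 5 nuclei, and 7 of 14 measured members were higher.

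Cell cycle inhibitors and p53 targets were sparse. Cdkn1a, which encodes p21, was detected in 3 nuclei (0.836%) and 6 nuclei (0.828%), and Cdkn2a in 2 (0.557%) and 3 (0.414%), each with 1 UMI per nucleus. The upper bounds for Cdkn1a were 2.42% and 1.79%, and a difference was not detectable at this depth. Of the retinoblastoma family, Rb1 stood at 128 and 134 CPM (1.05, 0.881–1.25) and Rbl2 at 62.0 and 41.1 CPM (0.663, 0.502–0.878). Of 15 measured p53 targets, 10 were higher and 5 lower, none was at least 1.5 times higher, and the median log2 ratio was 0.09. In nuclei with at least 6 identity genes 6 were higher and 9 lower, with a median of −0.05. Mdm2, which degrades p53, was at 53.1 and 48.3 CPM (0.908, 0.686–1.21), Sesn1 at 142 and 127 CPM (0.895, 0.754–1.06) and Ei24 at 38.8 and 24.5 CPM (0.630, 0.440–0.905). Of 15 measured genes of double-strand break repair, Mre11a, a nuclease that processes broken ends, was the only one past 1.5 times at 36 and 118 UMIs (1.57, 1.07–2.35), while Atm, the kinase that signals breaks, was at 66.8 and 61.6 CPM (0.923).

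In the hypoxia and cholesterol synthesis lists more genes were lower than higher, for hypoxia by a narrow margin. Vegfa (chr17:46016993-46032369, reverse strand) stood at 149 CPM in ShamRT-28d and 74.3 CPM in WBRT-28d, a ratio of 0.498 (0.412–0.603), with a UMI in 120 of 359 nuclei (33.4%) and 163 of 725 (22.5%). In astrocyte nuclei its ratio was 0.617 (0.533–0.715) and in mature oligodendrocyte nuclei 1.10 (0.888–1.37), and the difference between classes was not tested. Of 15 measured hypoxia genes 9 were lower and 6 higher, against 50.7% and 49.3% of all genes with at least 20 UMIs. With Vegfa, 4 were at least 1.5 times lower and 1 higher, against 9.84% and 8.46% of all such genes. The median log2 ratio was −0.34. In nuclei with at least 6 identity genes 3 of 14 were at least 1.5 times lower and 3 higher, with a median of −0.08 and a summed ratio of 0.797 (0.729–0.871). Bnip3, a mitophagy receptor, was at 19 and 15 UMIs (0.378, 0.179–0.785). The repressor Mxi1 was at 117 and 90.3 CPM (0.771, 0.635–0.938) and the collagen hydroxylase P4ha1 at 119 and 105 CPM (0.881, 0.730–1.06). Of 18 measured cholesterol synthesis genes 15 were lower, with a summed ratio of 0.878 (0.793–0.974), although the interval of every single gene held 1. Srebf2, a transcription factor that drives the pathway, was at 75.6 and 64.2 CPM (0.849).

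The remaining response lists were small. Of 9 measured immediate early genes 7 were lower and 4 at least 1.5 times, Junb at 17 and 12 UMIs (0.338, 0.147–0.751) with an interval that left out 1. The interval of 8 of the 9 held 1. Among all genes with at least 20 UMIs, 49.3% were higher, 50.7% lower and 9.84% at least 1.5 times lower. In nuclei with at least 6 identity genes 5 were measured, 3 of them lower, and the list's summed ratio was 1.16 (0.906–1.48) against 0.833 (0.681–1.02) in all OPC nuclei. Of 8 heat shock genes 6 were higher, with Hspa8 at 79.0 and 105 CPM (1.32, 1.07–1.65) and Hsp90ab1 at 136 and 167 CPM (1.23, 1.05–1.46), and in mature oligodendrocyte nuclei Hspa8 had a ratio of 1.53 (1.40–1.68). Glucocorticoid response genes had a median log2 ratio of 0.17, with 6 higher and 4 lower, which turned to −0.04 with 4 higher and 6 lower without mixed nuclei, with the receptor Nr3c1 at 193 and 159 CPM (0.827, 0.713–0.961) and the kinase Sgk1 at 224 and 203 CPM (0.905, 0.790–1.04). Interferon and MHC class I genes were measured for 9 of 22, with Ifi27 at 68.8 and 41.1 CPM (0.597, 0.456–0.784) and H2-K1 at 17 and 65 UMIs (1.83, 1.06–3.33). Regional patterning genes were measured for 7 of 22, and 7 were at 0 in both libraries. The patterning factor Zic1 was at 15 and 10 UMIs (0.319, 0.128–0.759).

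Some listed genes past 1.5 times had an interval that held 1, and most of them are named here after their values were seen. The higher ones were Tnc (1.59), Unc5a (1.55), Unc5b (2.03), Ermn (2.03), Cdkn2d (1.63), Ndrg1 (2.15) and Tsc22d3 (1.91). The lower ones included Hey1 (0.663), Xpc (0.654), Adm (0.585), Mvk (0.435), Jund (0.579), Egr1 (0.605), Nr4a2 (0.638), Irf1 (0.615), Emx2 (0.663), Cenpe (0.663) and Anln (0.505). Of members past 1.5 times whose interval left out 1, Hk2, a glycolytic enzyme, was at 13 and 10 UMIs, a ratio of 0.368 (0.145–0.909) that turned to 2.28 without mixed nuclei, and Daam2, a Wnt pathway formin, at 9 and 65 UMIs. Slit1 was at 33 and 104 UMIs (1.51, 1.01–2.30).

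**Figure D4:**
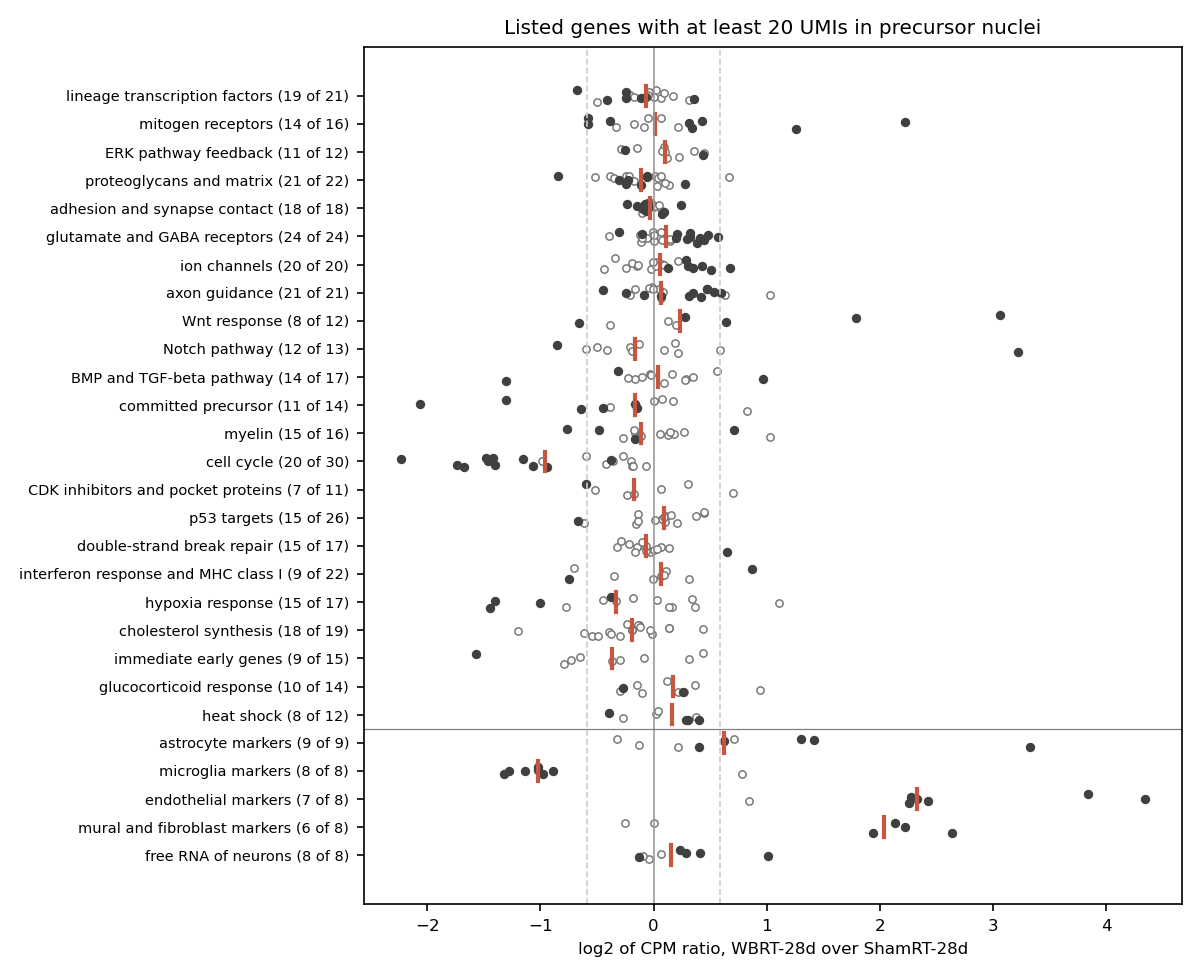
Log2 of the CPM ratio of WBRT-28d over ShamRT-28d in OPC nuclei for each listed gene with at least 20 UMIs, 1 row per list with the number measured of the number listed. Filled points have a 95% counting interval that leaves out 1, red bars are medians, dashed lines mark 1.5 times, and lists below the solid line mark other cell types. The cell cycle median lies at −0.96 and the endothelial median at 2.33, while the median of most OPC lists lies close to 0.

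The 15 genes per direction with the ratio farthest from 1 by its interval, taken among genes at least as high in OPC nuclei as in the remaining nuclei of the library in which they stood higher, were mostly outside these lists. Olfm2, a secreted olfactomedin (chr9:20667690-20746349, reverse strand), was higher in WBRT-28d at 86.5 and 162 CPM, a ratio of 1.87 (1.54–2.29), with a UMI in 88 of 359 nuclei (24.5%) and 300 of 725 (41.4%). Its ratio was 1.94 without mixed nuclei, and it was also above 1 in mature oligodendrocyte nuclei at 1.54 (1.25–1.91) and in astrocyte nuclei at 2.58 (1.48–4.79). Arrb1, the beta-arrestin that stops receptor signalling, was at 34.1 and 62.6 CPM (1.84, 1.34–2.56), and Grk5, a receptor kinase of the same route, at 123 and 181 CPM (1.47, 1.24–1.75). Plxnc1, a semaphorin receptor, was at 42.2 and 71.7 CPM (1.70, 1.28–2.29), and the cadherin Cdh22 at 19.8 and 39.5 CPM (2.0, 1.32–3.11). Pitpnc1, a phospholipid transfer protein, was at 313 and 453 CPM (1.45, 1.30–1.61) and had ratios of 2.47 and 0.983 in oligodendrocyte and astrocyte nuclei. Ratios above 2 came from fewer UMIs, with Snrpd3, a splicing core protein, at 17 and 83 UMIs (2.34, 1.38–4.2), Rbsn, an endosomal protein, at 18 and 83 UMIs (2.21, 1.31–3.90) and Ahsa2, an Hsp90 co-chaperone relative, at 20 and 91 UMIs (2.18, 1.33–3.73). The other members were Fam212b (1.96), Kcnip3, Ubac2 (1.60), Wwc1 (1.53), Zc3h3 (1.87) and Cnbp (1.75). Of the 15, only Fam212b (0.932) had a ratio below 1 in mature oligodendrocyte nuclei. Arrb1 had 1.77 (1.44–2.20) there, Cdh22 1.73 (1.34–2.27) and Wwc1 1.85 (1.60–2.16). In astrocyte nuclei Arrb1, Cdh22 and Wwc1 had 1.13, 0.858 and 0.878. Whether the classes differed was not tested.

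Lower genes included several that were lower in all 3 classes of nuclei. Cd9, a tetraspanin of the oligodendrocyte lineage (chr6:125460266-125494791, reverse strand), stood at 302 and 157 CPM, a ratio of 0.521 (0.457–0.594), with 0.549 (0.510–0.590) in mature oligodendrocyte nuclei and 0.502 (0.410–0.615) in astrocyte nuclei. Acp1, a low molecular weight phosphatase, stood at 142 and 69.4 CPM (0.488, 0.401–0.593), with 0.707 and 0.499 in the 2 other classes, and Slc24a5, a cation exchanger, at 98.1 and 44.7 CPM (0.455, 0.358–0.579), with 0.588 and 0.578. Bcas1os2, annotated on the strand opposite Bcas1, stood at 112 and 43.4 CPM (0.386, 0.305–0.488). How strand was used in counting is not given in the sources used here, so Bcas1os2 and Rsf1os1 (0.496) are uncertain.

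Some other lower genes had ratios on different sides in the 3 classes. Chd3, a chromatin remodeller of the NuRD complex, stood at 166 and 78.6 CPM (0.475, 0.396–0.570) and had a ratio of 1.38 (1.19–1.59) in mature oligodendrocyte nuclei. Chst9, a sulfotransferase, stood at 187 and 98.1 CPM (0.526, 0.445–0.622), with 5.61 (4.07–7.91) in oligodendrocyte and 0.593 (0.424–0.833) in astrocyte nuclei, and P2ry14, a receptor for UDP-sugars, at 159 and 85.4 CPM (0.538, 0.449–0.645), with 1.11 and 0.533. Whether a ratio differed between classes was not tested. The remaining lower genes were Top2a, Vegfa, Ggact (0.494), Adam18 (0.451), the small nuclear ribonucleoprotein gene Snrpf (0.448), Cenpp (0.496) and Sycp3 (0.440). Ggact, Snrpf, Cenpp and Sycp3 were also below 1 in mature oligodendrocyte nuclei, at 0.772, 0.444, 0.746 and 0.736. In astrocyte nuclei they had 0.762, 0.657, 0.712 and 0.620, and the intervals of Snrpf and Cenpp held 1 there. Top2a and Adam18 had 0.542 and 0.361 in mature oligodendrocyte nuclei and 0 UMIs in astrocyte nuclei of ShamRT-28d. The 30 genes were chosen by this same ratio, and some reached the level of the remaining nuclei in one library alone, so their ratios are descriptions.

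**Figure D5:**
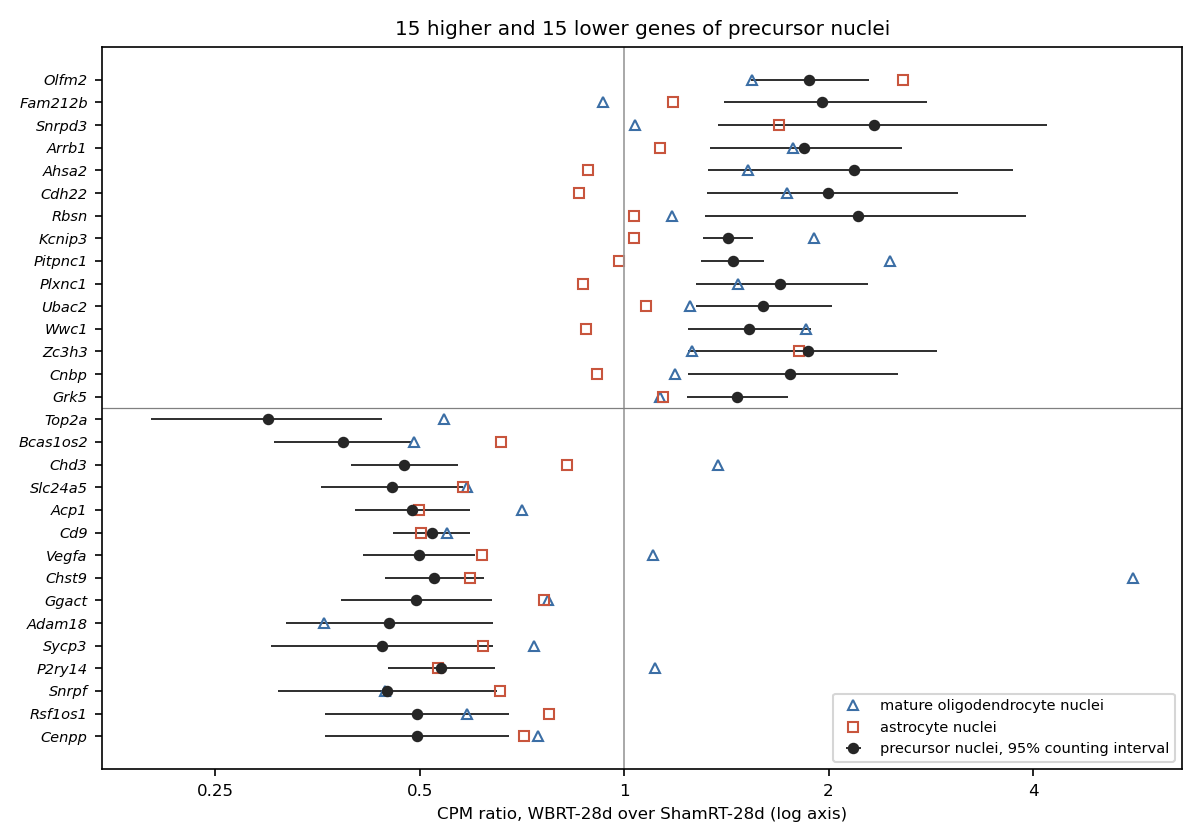
CPM ratio of WBRT-28d over ShamRT-28d (log axis) for the 15 higher and 15 lower genes, in OPC nuclei (black points, 95% counting intervals), mature oligodendrocyte nuclei (blue triangles) and astrocyte nuclei (red squares), the other classes where they held at least 20 UMIs. Olfm2 lies above 1 and Cd9, Acp1 and Slc24a5 below 1 in all 3 classes, while Chst9 lies at 0.526 in OPC nuclei and 5.61 in mature oligodendrocyte nuclei.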

How the data were processed

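Nuclei of 2 libraries were profiled by droplet single-nucleus RNA-seq. The authors deposited unnormalized UMI counts per gene and barcode, made with Cell Ranger 5.0.0 (file headers) on a pre-mRNA reference. The submitters' processing notes name mm10, Seurat 3.0 and R 3.5.3. The marker rule was applied to barcodes that reached 500 genes and stayed within 5% mitochondrial UMIs. Astrocyte nuclei held at least 3 of Aqp4, Gja1, Slc39a12, Fgfr3, Ntsr2 and Gli3 and at most 1 of the rule markers. They also held at most 1 of Mog, Mag, Mobp, Csf1r, Flt1, Slc17a7 and Gad2. UMIs of the chosen nuclei were summed per library and expressed as CPM of their total. Ratios carry exact conditional binomial intervals. With 1 library per group no test was run. Gene lists were counted from 20 UMIs over both libraries and other genes from 100. Named genes were the rule markers, Cdkn1a, Cdkn2a, up to 4 members per list with most UMIs, up to 4 per list and direction past 1.5 times whose interval left out 1, 15 genes per direction over all genes, and the 20 with the largest fold over other nuclei. Atm, Ednrb, Enpp6, Olig1, Olig2, Sox10 and Tcf7l2 were named after their values were seen. The rule, the members and the lists were chosen with earlier results of these data known. Free RNA was estimated per gene from the level of 8 neuron genes, and CPM was not rescaled after it was subtracted. No doublet caller was run, and mixed nuclei were set aside by markers. Scn2a and Knl1 were matched by identifier, and 1 listed gene was not matched. Gene positions are those of GENCODE vM21 (GRCm38) and promoters those of RefSeq (GRCm38.p6). Sums and intervals were computed with scipy 1.17.1, pandas 2.3.3 and numpy 2.4.6 in Python 3.11.15, plots with matplotlib 3.10.9, and the scripts were tested on simulated data. Results of a few named genes are not reported here.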

Additional observations from a re-analysis of the deposited data

How the results depend on the processing

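The limits are that each group was 1 library of 2 pooled mice, that 359 OPC nuclei in ShamRT-28d hold 1467886 UMIs, so that rare states rest on a few nuclei, and that which genes free RNA or mixed nuclei entered was not tested. No paired analysis was possible because each group has 1 library, and leaving out a library leaves no comparison. The share of OPC nuclei, 3.25% in ShamRT-28d and 4.63% in WBRT-28d, was 2.50% and 3.56% with at least 4 markers, 4.65% and 6.36% with at least 2, 1.78% and 1.85% with none of the oligodendrocyte or other-type genes, 4.41% and 5.71% with at least 1000 genes, and 1.94% and 2.23% after thinning to 1000 UMIs. It was 2.74% and 4.04% with at least 6 identity genes, and 2.83% and 3.53% without mixed nuclei, both chosen after seeing the data, like the alternatives that leave out cycling or Gpr17 nuclei. The committed share was 6.84% and 4.83% thinned, 72.1% and 70.6% with 1 gene fewer, and 47.5% and 44.1% with at least 4 markers. The cell cycle share was 24.2% and 21.0% with 1 gene fewer, and 1.10% thinned in WBRT-28d. Genes at least 1.5 times higher and lower, 254 and 245 of 6572, numbered 111 and 107 of 3194 with none of the oligodendrocyte or other-type genes. They numbered 1003 and 1166 of 11849 from 20 UMIs, and 1344 of 6265 were lower with free RNA subtracted and not rescaled. The number of genes measured thus changed with these settings as well. At no other setting tried did either count move by over 1.5 times. The median log2 ratio of neuron genes was 0.54 without mixed nuclei and 0.58 with at least 6 identity genes, and that of endothelial genes 3.84 for the 3 genes with 100 UMIs. Of 1802 recomputed ratios of 207 named genes, 203 lay outside the reported interval and 20, all of genes whose interval left out 1, changed side of 1. With nuclei holding none of the other-type genes these were C1qa (1.13), Dcc (0.957), Hk2 (1.33) and Nr3c2 (0.823). With free RNA subtracted they were Dcc (0.980), Gad2 (0.0648), Hsp90aa1 (0.891), Nr3c2 (0.936), Ntrk2 (0.990), Slc1a2 (0.983) and Slc4a4 (0.470). These subtracted values were not rescaled, which lowers ratios as a whole, so a value just below 1 may come from the subtraction alone. Without mixed nuclei they were Dcc (0.998), Hk2 (2.28), Nr3c2 (0.957) and Znrf3 (0.973). With nuclei lacking Gpr17 they were Celf4 (0.954), Ptprz1 (1.08), Syt1 (0.984) and Unc5c (1.04), and with every nucleus weighted equally Sox6 (1.0). The cause was not tested.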
